A study of Rattus norvegicus with 16 samples.

Results

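The genes described here mark microglia and other myeloid cells in the rat diencephalon, the part of the forebrain that holds the thalamus and the hypothalamus. They are *Lyz2*, *Aif1*, *Tyrobp*, *Csf1r*, *Cx3cr1*, *P2ry12*, *C1qa*, *C1qb*, *C1qc* and *Itgam*. Members were taken as all probe sets whose symbol in the platform annotation is one of these names, which gave 10 of 14217 named genes and 12 of 31042 probe sets. *P2ry12* and *Aif1* had 2 probe sets each and the others 1.

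Expression was measured on 16 Affymetrix arrays, 1 for each male Sprague-Dawley rat, with 4 arrays in each of 4 groups. All rats started at 5 weeks of age, and all had a choice test with 300 mM NaCl. Rats made zinc-deficient (ZD) had free access for 10 days to food holding 0.6 mg zinc per kg, and their pair-fed controls (PF) were given as much as these ate of food holding 30 mg zinc per kg. Zinc recovery rats (ZR) spent 10 days on the deficient diet and then 6 days on 13 g of the control diet. Their pair-fed controls (ZRPF) spent 10 days on matched amounts of the control diet and the same 6 days on 13 g of it. The groups began with 9 rats (ZD, ZR) or 6 rats (PF, ZRPF). The submitters dropped some ZR and ZRPF rats on their salt preference and chose 4 average rats of each group for arrays, so the spread between arrays is that of selected animals. The ZD and PF rats were killed after 10 days and the ZR and ZRPF rats after 16, so the experiments also differ in age.

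Microglia are the resident macrophages of the brain parenchyma. They depend on signalling through the receptor encoded by *Csf1r*, survey their surroundings with processes guided by the nucleotide receptor P2RY12, and respond to the neuronal chemokine fractalkine through CX3CR1. They are also the main brain source of C1q, the recognition unit of the classical complement pathway, which tags material for uptake through complement receptor 3, of which *Itgam* encodes a subunit. Zinc is needed by many enzymes and transcription factors, and its lack is known to alter immune cells.

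Myeloid genes share a class of regulatory element, the purine-rich site read by the ETS factor PU.1, which is needed for myeloid development. RefSeq promoters on GRCr8 were at hand for 6 of the 10 members, namely *Lyz2*, *Csf1r*, *Cx3cr1*, *C1qa*, *C1qb* and *Itgam*, each running from 250 bases before the transcript start to 50 after it. The letters GAGGAA, on either strand, were in 4 of these 6 promoters (*Itgam*, *C1qb*, *Lyz2* and *Csf1r*), against 27.6% of 33469 promoters in the table. The letters AGGAAGT, which can overlap the former, were in 3 of 6 (*C1qb*, *Lyz2* and *Cx3cr1*), against 8.41% of all. The 80 bases from 110 to 31 before the start are shown for *Lyz2* and *Csf1r*, the members with the smallest p in the comparisons below, and for *C1qa* and *C1qb*, neighbouring genes whose signals are compared from rat to rat at the end. Capitals mark GAGGAA or AGGAAGT, or their reverse complements TTCCTC and ACTTCCT; the strand of the gene is given after the position, and each is written 5′ to 3′ on that strand.
Lyz2, chr7:54798042-54798121, minus strand: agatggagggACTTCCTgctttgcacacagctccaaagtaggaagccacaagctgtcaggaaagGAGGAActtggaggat
Csf1r, chr18:56834269-56834348, plus strand: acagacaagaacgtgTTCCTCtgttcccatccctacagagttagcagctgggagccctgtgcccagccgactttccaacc
C1qb, chr5:154407858-154407937, minus strand: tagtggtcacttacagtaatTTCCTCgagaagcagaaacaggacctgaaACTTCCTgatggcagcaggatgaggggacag
C1qa, chr5:154419964-154420043, minus strand: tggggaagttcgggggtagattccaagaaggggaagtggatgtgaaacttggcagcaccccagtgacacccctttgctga
The *C1qa* stretch held neither run of letters. In the RefSeq gene table (GRCr8) the C1q genes stand next to one another in the order *C1qb*, *C1qc*, *C1qa*, *Lyz2* stands beside *Lyc2*, another lysozyme gene, *Tyrobp* beside *Hcst*, and *P2ry12* beside *P2ry13*. Whether the *Lyz2* probes also bind *Lyc2* RNA was not tested.

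Values are MAS5 signals, an intensity per probe set that had been scaled to a common mean in each array, and differences are on the log2 scale (a difference of 1 is a doubling). The median signal per array ran from 156 to 172. Signals of arrays of 1 group correlated at 0.944 to 0.961 across probe sets. A probe set was tested where its mean log2 signal over the 16 arrays was at least 7.35, a signal of 163, which kept 15521 probe sets. Of the members, 9 probe sets of 8 genes passed. *Cx3cr1*, *Itgam* and the weaker *Aif1* probe set lay below this level, and their values are given with no call. Fold changes of tested probe sets come from 1 limma fit of the 4 groups, and p-values carry a Benjamini-Hochberg adjustment over the 15521. Of the thalamus genes on the array 12 of 12 passed the filter. So did 13 of 13 brain endothelium genes and 11 of 12 neuron genes, so passing does not check which region was dissected. Of 32 further microglia genes on the array 11 passed, among them *Tmem119*, *Sall1* and *Gpr34*, and the other 21 did not, among them *Trem2*, *Cd68*, *Ptprc*, *Irf8* and *Adgre1*.

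Zinc deficiency was compared with pair-feeding to separate the lack of zinc from the lower food intake. No member passed the threshold in ZD against PF, and no other probe set did (0% of those tested; 1220 had an unadjusted limma p under 0.05, 7.86%). *Lyz2* stood out most among the members, at 0.45 ± 0.09 (SE, n = 4 per group), and *P2ry12*, *Aif1* and *Csf1r* lay between 0.26 and 0.47. The C1q genes lay between -0.05 and 0.02. Of the 8 member genes tested, 6 were higher and 2 lower in ZD, with a median of 0.20, where 52.5% of all probe sets tested were higher and their median was 0.01. The members left out by the filter, *Cx3cr1* (-0.53 ± 0.20) and *Itgam* (-0.23 ± 0.57), were both lower in ZD, with no call. An unadjusted p under 0.05 with a higher signal was found for 4 of the 8 members (*Lyz2*, *P2ry12*, *Aif1* and *Csf1r*) and for 4.03% of probe sets. That count rested on single rats and on the cutoff. It was 1 without ZD 9, and 2 without PF 1, PF 2 or ZD 2. It was also 2 with choroid plexus and thalamus covariates or with only the 8 arrays of these groups. Quantile normalization, median centring, an offset, no intensity trend or the mean of a gene's probe sets each gave 3. *Csf1r* had an unadjusted limma p of 0.04996. In whole tissue, a change in the number of cells of a type and a change in RNA per cell cannot be told apart.

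*Lyz2* encodes lysozyme, a bacteria-digesting enzyme of macrophages, monocytes and neutrophils that microglia make in smaller amounts. Its signal was 1243, 1199, 1199 and 1114 in PF rats 1, 2, 4 and 6, and 1768, 1695, 1714 and 1355 in ZD rats 2, 3, 8 and 9. All ZD arrays lay above all PF arrays, and ZD 9 was the nearest to PF. A separation of this kind, with ZD higher, was seen for 1 of the 8 members and for 2.49% of probe sets. The difference of 0.45 ± 0.09 (95% interval 0.25 to 0.65, a fold of 1.37) had an limma adjusted p of 0.151 and was the ninth smallest p among the probe sets tested. Over the 19 alternatives the difference ran from 0.39 to 0.54 and the adjusted p from 0.0783 to 0.428. In ZRPF rats 2, 4, 5 and 6 the signal was 1279, 1254, 1173 and 1462, and in ZR rats 7, 10, 13 and 15 it was 1247, 1502, 1199 and 1193. These groups overlapped throughout, and ZR lay -0.01 ± 0.09 from ZRPF (95% interval -0.21 to 0.19, limma adjusted p = 0.994). The change from the first effect to the second, the interaction, was -0.46 ± 0.13, with an limma adjusted p of 0.747.

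Genes of blood leukocytes were read beside *Lyz2*, since those cells also make lysozyme. Of the 18 listed, 12 were on the array and none passed the filter. Their summed signal was 322 to 391 in PF, 376 to 560 in ZD, 362 to 409 in ZRPF and 282 to 431 in ZR, so ZD and PF overlapped at their edges. As a mean log2 deviation, which gives each gene equal weight, the list lay at -0.26 to 0.22 in PF and 0.23 to 0.47 in ZD. It lay at -0.32 to 0.05 in ZRPF and -0.43 to 0.29 in ZR. ZD and PF just failed to overlap by this measure, with PF 6 at 0.225 and ZD 9 at 0.234. Equal weight lets very weak genes count fully, such as *Cd3d*, with a mean signal of 3.42 in PF and 5.26 in ZD. The neutrophil gene *S100a8* read 4.53 to 6.10 in PF and 23.7, 24, 3.32 and 27.2 in the ZD rats. It read 34.1, 5.74, 49.7 and 5.97 in the ZRPF rats and 5.39, 28.0, 3.17 and 4.27 in the ZR rats. High readings of *S100a8* were thus not limited to ZD. *Ccr2*, the chemokine receptor of inflammatory monocytes, read 2.22 to 7.48 in PF and 2.53 to 18.5 in ZD. The list did not move as one. Mean signal was lower in ZD for *Camp* (7.35 in PF, 6.24 in ZD), *Cd79b* (11.3 and 6.42) and *Cd3g* (40.2 and 35.7), and higher for the rest. In signal units the rise was largest for *Plac8* (54.0 in PF, 117 in ZD) and *Ly6c* (38.7 and 67.1), so these weigh most in the sum's rise. The border macrophage genes, 11 on the array, summed to 798 to 1245 in PF and 983 to 1207 in ZD, and 2 of them passed the filter: *Lyve1* differed by 0.25 ± 0.21 and *F13a1* by 0.16 ± 0.18 in ZD against PF. Their part in the *Lyz2* difference was not tested.

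**Figure D1:**
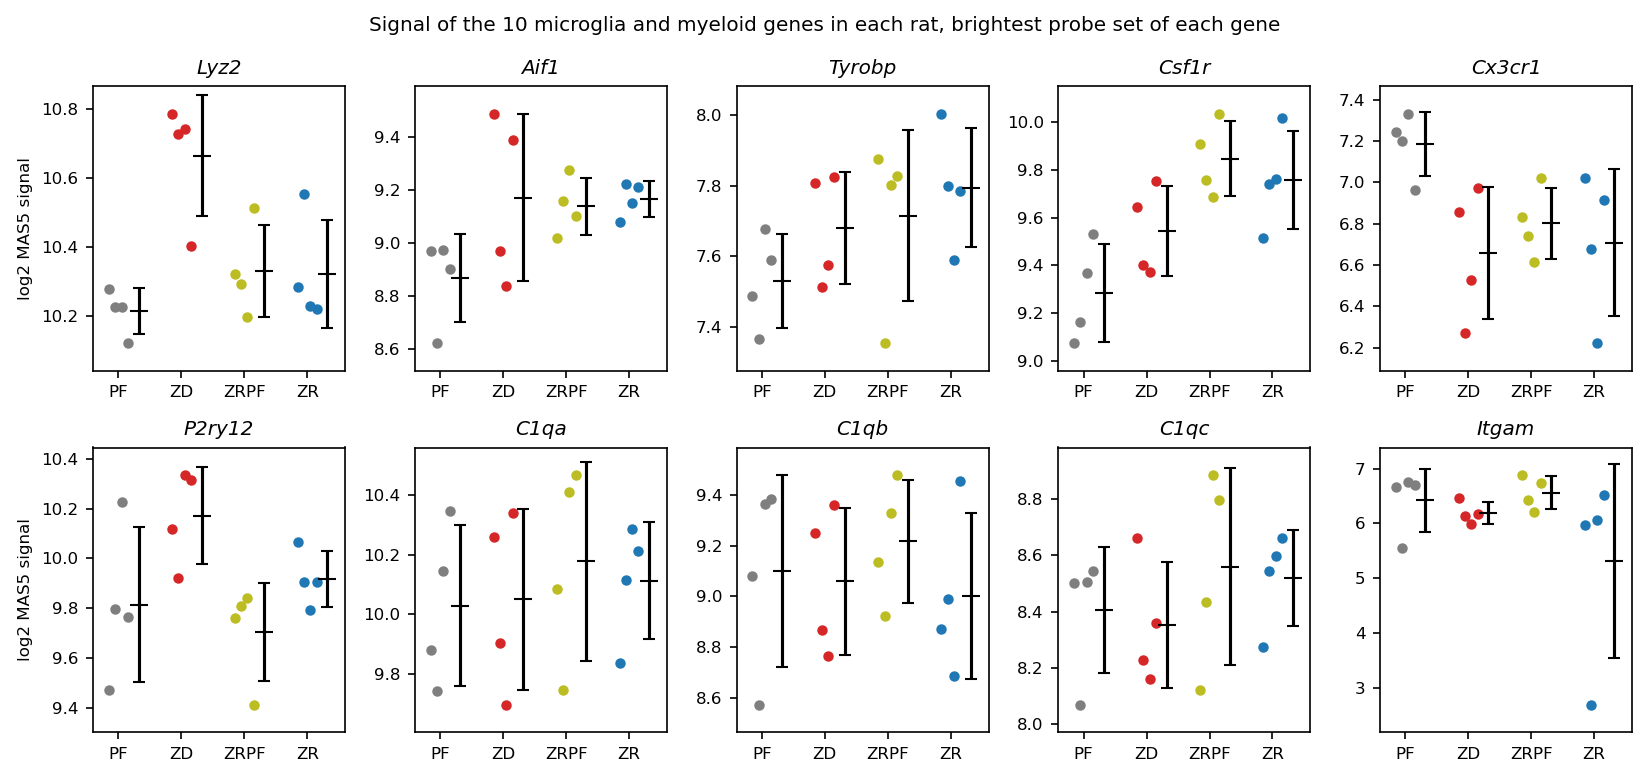
Log2 MAS5 signal of each member gene, by its brightest probe set; each point is 1 rat, coloured by group (PF, ZD, ZRPF and ZR, 4 rats each), and the bar beside it is the group mean with its SD. Lyz2 shows ZD above PF in every rat, Csf1r shows the ZRPF rats above all PF rats, and the C1q genes overlap in all groups; each panel has its own vertical scale.

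*Aif1* encodes IBA1, the actin-binding protein that is the common stain for microglia and macrophages. Its brighter probe set read 502, 394, 503 and 479 in PF and 719, 502, 457 and 671 in ZD. The ZD rats were split, with 2 above all PF rats and 2 within the PF range, and the difference was 0.30 ± 0.13 (limma adjusted p = 0.581). In the 16-day groups the signal was 519, 572, 620 and 549 in ZRPF and 541, 598, 569 and 593 in ZR. These overlapped, at 0.03 ± 0.13 for ZR against ZRPF (limma adjusted p = 0.990). The weaker probe set ran from 26.4 to 108 over all arrays, below the filter, and did not follow the brighter one.

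*Tyrobp* encodes DAP12, the adaptor that carries an activating motif for receptors such as TREM2. It read 179, 165, 205 and 193 in PF and 224, 183, 191 and 226 in ZD. Of the ZD rats 2 lay above every PF rat and the others among them, with a difference of 0.15 ± 0.13 (limma adjusted p = 0.814). ZR against ZRPF gave 0.08 ± 0.13 (limma adjusted p = 0.964). Of the 22 genes listed as TYROBP partners and ITAM signalling, 15 were on the array and 2 passed the filter. These were *Fcer1g*, another adaptor with the same kind of motif, at 0.17 ± 0.09 in ZD against PF, and *Blnk*, a signalling scaffold, at 0.14 ± 0.17. *Trem2* read 44.4 to 113 in PF and 48.5 to 95 in ZD, and *Hcst*, the neighbouring adaptor gene, was below the filter too, at 1.89 to 45.9 over all arrays.

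Among the surface receptors, *P2ry12* marks resting microglia and is lost from activated ones. Its brighter probe set read 709, 889, 1200 and 869 in PF and 1110, 968, 1291 and 1273 in ZD. PF 4 lay among the ZD rats, so the groups overlapped, and the difference was 0.36 ± 0.14 (limma adjusted p = 0.533). The second probe set read 185, 275, 376 and 236 in PF and 375, 328, 346 and 387 in ZD, again with PF 4 inside the ZD range. It differed by 0.47 ± 0.17 (limma adjusted p = 0.503). In ZR against ZRPF the probe sets gave 0.21 ± 0.14 and 0.00 ± 0.17 (limma adjusted p = 0.932 and 1).

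*Csf1r*, the receptor for CSF1 and IL-34, read 539, 574, 660 and 741 in PF and 801, 676, 662 and 864 in ZD. All ZD rats lay above the PF mean, and 2 of them above every PF rat. The difference was 0.26 ± 0.12 (limma adjusted p = 0.634). In ZRPF the signal was 960, 865, 823 and 1049 and in ZR 731, 856, 868 and 1036, which overlapped, at -0.09 ± 0.12 (limma adjusted p = 0.958). By their brightest probe sets its ligands gave 0.06 ± 0.12 for *Csf1* and 0.07 ± 0.17 for *Il34* in ZD against PF (limma adjusted p = 0.942 and 0.946). ZR against ZRPF gave -0.09 ± 0.12 and -0.09 ± 0.17 for these ligands. The 3 other *Csf1* probe sets were below the filter, with no call, and gave 0.53 ± 0.30, 0.32 ± 0.23 and -0.10 ± 0.25 in ZD against PF.

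*Cx3cr1*, the fractalkine receptor, gave a weak signal below the filter. It read 151, 147, 161 and 125 in PF, 116, 77.2, 92.3 and 125 in ZD, 114, 107, 97.8 and 130 in ZRPF, and 130, 102, 74.6 and 121 in ZR. PF rats 1, 2 and 4 were above every array of the other 3 groups, and PF 6 lay among them. In the fit without a filter, ZD lay -0.53 ± 0.20 from PF and ZR lay -0.09 ± 0.20 from ZRPF. *Cx3cl1*, which encodes fractalkine and is made by neurons, differed by -0.02 ± 0.07 in ZD against PF (limma adjusted p = 0.961).

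The C1q chains form the head of the classical complement pathway. *C1qa* read 942, 856, 1133 and 1303 in PF and 1225, 957, 830 and 1297 in ZD, *C1qb* 541, 381, 659 and 668 against 609, 467, 435 and 657, and *C1qc* 363, 269, 363 and 374 against 405, 300, 286 and 329. In each of them the groups overlapped. The differences were 0.02 ± 0.17, -0.04 ± 0.19 and -0.05 ± 0.16 (limma adjusted p = 0.982, 0.971 and 0.956), and their 95% intervals together ran from -0.44 to 0.38. In ZR against ZRPF they were -0.06 ± 0.17, -0.21 ± 0.19 and -0.04 ± 0.16, with limma adjusted p of 0.974, 0.945 and 0.986. The signs of these small differences rested on single rats: *C1qa* in ZD against PF turned without any 1 of PF 1, PF 2, ZD 2 or ZD 9 (lowest -0.08), *C1qb* without any 1 of PF 4, PF 6, ZD 3 or ZD 8 (highest 0.06) and *C1qc* without ZD 8 (0.01).

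*Itgam* encodes CD11b and gave a weak signal below the filter. It read 102, 47.1, 108 and 104 in PF and 88.1, 70.4, 63.4 and 71.8 in ZD, where PF 2 stood below all others. In ZRPF it read 118, 86.0, 74.1 and 107, and in ZR 63.0, 6.44, 66.7 and 92.3. ZR 10 was far below every other array. In the fit without a filter ZD lay -0.23 ± 0.57 from PF and ZR lay -1.25 ± 0.57 from ZRPF, or -0.38 without ZR 10. Its partner chain *Itgb2*, the integrin subunit that CD11b shares with other leukocyte integrins, was above the filter. *Itgb2* read 145, 193, 183 and 156 in PF and 258, 226, 215 and 222 in ZD. All ZD rats were above all PF rats, at 0.45 ± 0.13 (limma adjusted p = 0.318), and ZR lay 0.23 ± 0.13 from ZRPF (limma adjusted p = 0.927).

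**Figure D2:**
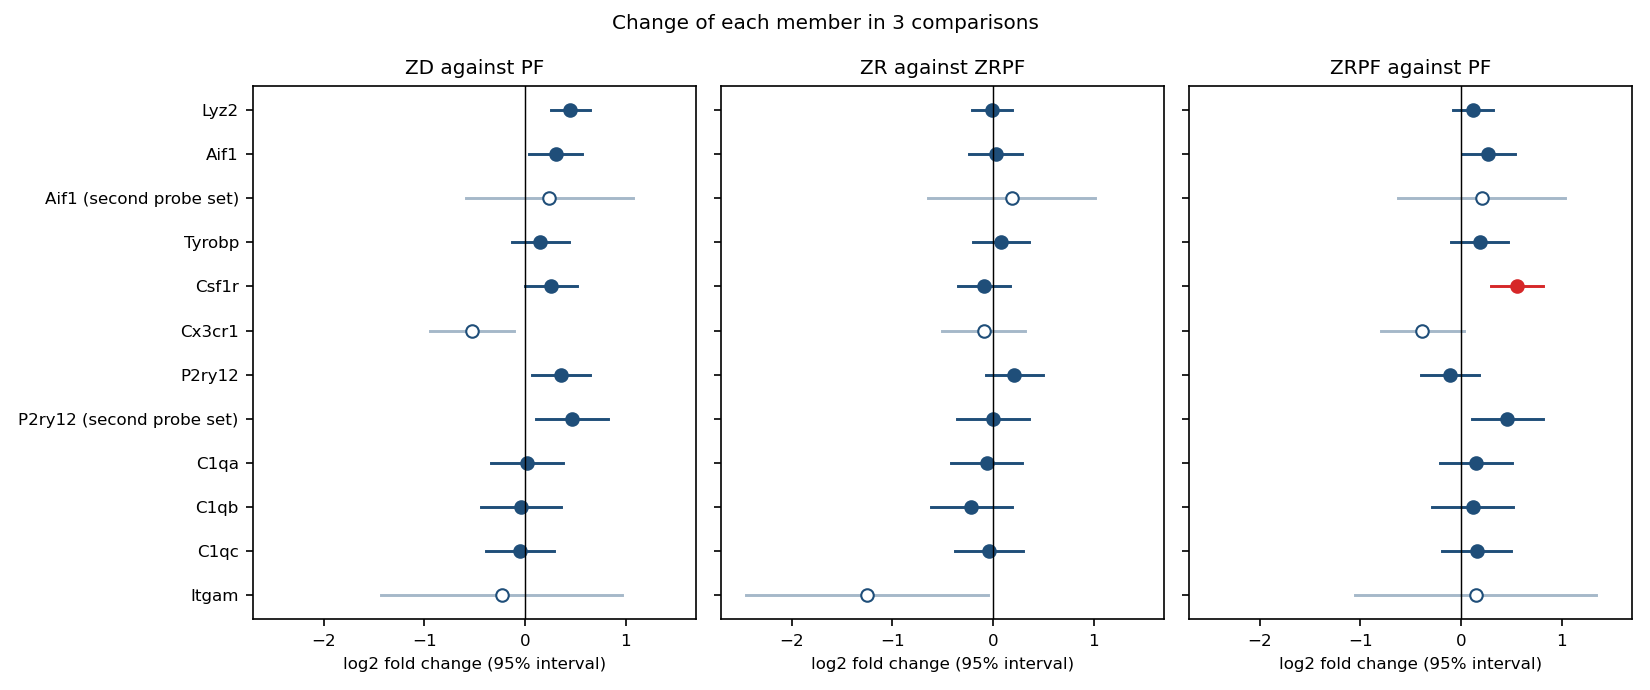
Log2 fold change of every member probe set in ZD against PF, ZR against ZRPF and ZRPF against PF, each point with its 95% interval from the limma fit and a line at 0; open points with pale lines are probe sets below the filter. The filled red point, Csf1r at 0.56 in ZRPF against PF, is the 1 member value with an adjusted p under 0.05; in ZR against ZRPF the intervals of all filled points include 0.

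Of the 30 genes listed for complement and its regulators, 22 were on the array and 12 were tested. In ZD against PF 8 were higher and 4 lower, none passed the threshold, and the median was 0.07. *Serping1*, which encodes the inhibitor of the C1 proteases, read 213, 173, 223 and 204 in PF and 326, 385, 306 and 255 in ZD. The groups did not overlap, at 0.64 ± 0.13 (limma adjusted p = 0.151), and ZR lay 0.06 ± 0.13 from ZRPF (limma adjusted p = 0.970). The C1 proteases that join C1q gave 0.32 ± 0.20 (*C1r*) and 0.08 ± 0.17 (*C1s*) in ZD against PF, and *C3*, the central component, was below the filter. *C1ql1*, a C1q-like secreted protein of neurons, differed by 0.36 ± 0.10 with no overlap (limma adjusted p = 0.316).

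Other microglia genes were listed to see whether the members stood alone. Of 38 listed, 32 were on the array and 11 were tested, of which 7 were higher and 4 lower in ZD, with a median of 0.17 and none past the threshold. *Itgb2* and *Runx1* were higher in ZD without overlap, which makes 2 of 11, against 2.49% of probe sets. Lists share genes: *Itgb2* also counts for complement, *Runx1* for CSF1 and fractalkine signalling and *Fcer1g* for TYROBP partners. *Slc2a5*, the fructose carrier of microglia, differed by 0.46 ± 0.21 (limma adjusted p = 0.617) and *Sall1*, a transcription factor of microglial identity, by -0.03 ± 0.10 (limma adjusted p = 0.959). *Tmem119*, a marker of resident microglia, read 389 to 506 in PF and 344 to 502 in ZD. *Ctss*, a lysosomal protease, read 5873 to 7484 in PF and 5807 to 8952 in ZD, so both overlapped.

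For reactive microglia and inflammation, 14 of 36 genes on the array were tested, 8 higher and 6 lower in ZD with a median of 0.01, and none passed the threshold. *Cd74*, the invariant chain of antigen presentation, differed by 0.68 ± 0.27, *Ctsz*, a lysosomal protease, by 0.43 ± 0.20 and *Cyba*, a subunit of the phagocyte oxidase, by 0.27 ± 0.13 (limma adjusted p = 0.549, 0.609 and 0.628). *Apoe*, a lipid carrier of astrocytes and activated microglia, differed by -0.00 ± 0.08. The cytokine genes *Il1b*, *Tnf* and *Il6* were below the filter. For CSF1 and fractalkine signalling, 15 of 19 genes on the array were tested, 8 higher and 7 lower with a median of 0.04. The transcription factor gene *Runx1* did not overlap between ZD and PF at 0.17 ± 0.13 (limma adjusted p = 0.794), and *Smad3*, a carrier of TGF-beta signals, differed by 0.32 ± 0.14 (limma adjusted p = 0.584).

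Genes of other cells and of tissues at the edge of the dissection were read beside the members, and none of those listed here passed the threshold in ZD against PF. The 7 choroid plexus genes tested were all higher in ZD, with a median of 0.49, and 11 of 12 meningeal and mural genes were, with a median of 0.34. The summed signal of the choroid plexus list was 2247 to 3427 in PF and 3172 to 13493 in ZD, and that of the meningeal list 6479 to 7624 and 6715 to 11874, so both overlapped. Of the brain endothelium genes 10 of 13 were higher in ZD, with a median of 0.13, and the mean log2 deviation of the list did not overlap, at -0.13 to 0.01 in PF and 0.06 to 0.21 in ZD. Of the thalamus genes 11 of 12 were lower in ZD, with a median of -0.13. With choroid plexus and thalamus means as covariates *Lyz2* was 0.39, *Aif1* 0.19 and *Csf1r* 0.17 higher in ZD. The C1q genes were lower in that fit, at -0.12 (*C1qa*), -0.26 (*C1qb*) and -0.25 (*C1qc*). With these covariates 5 of the 8 members were higher in ZD, and their median was 0.15. The meningeal and mural list was not among the covariates. Its mean log2 deviation was 0.31, 0.46, 0.62 and -0.03 in ZD rats 2, 3, 8 and 9, and -0.15 to -0.02 in PF. Its part in the *Lyz2* difference was not tested. Astrocyte, oligodendrocyte and neuron lists had medians of -0.05, -0.01 and -0.06.

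**Figure D3:**
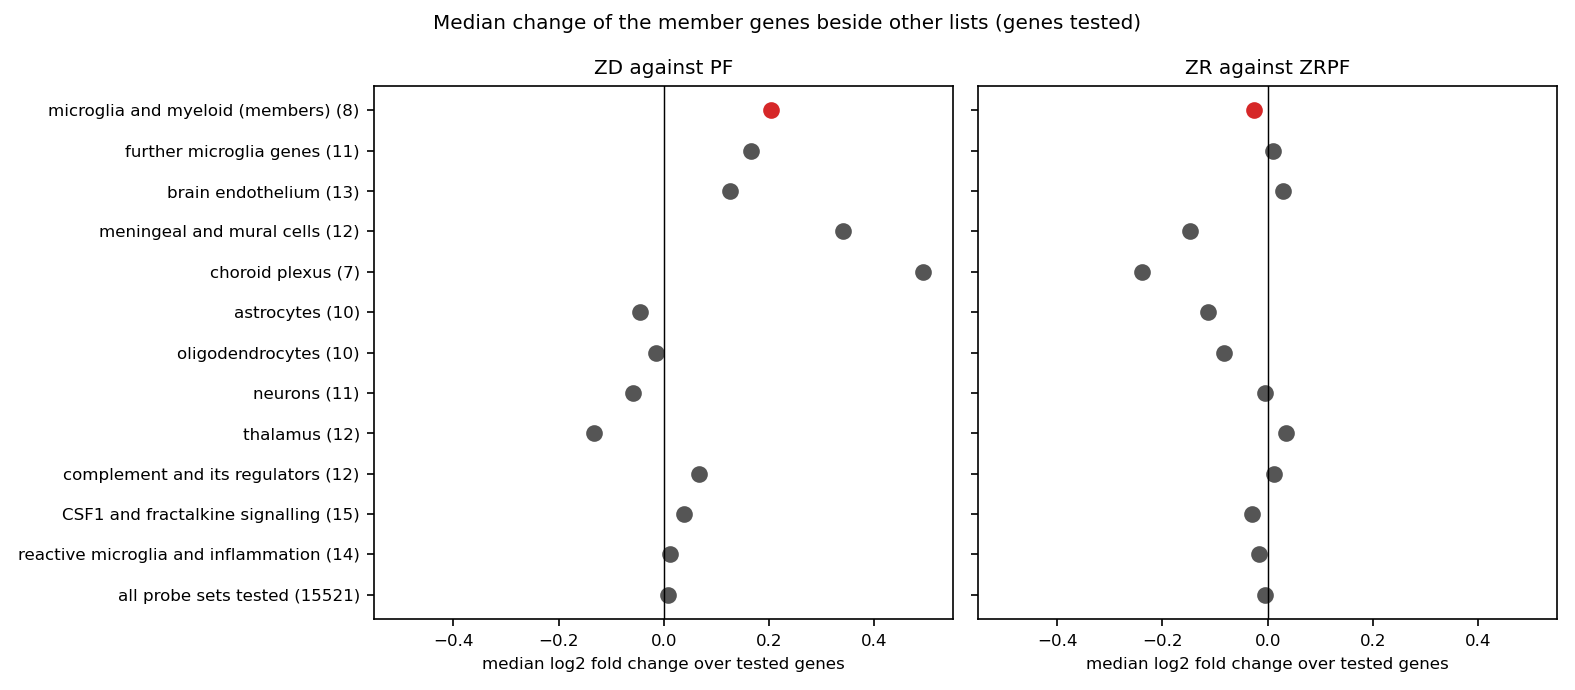
Median log2 fold change of the tested genes of each list in ZD against PF (left) and ZR against ZRPF (right), with the number of genes tested in brackets and a line at 0. The 8 members (red) sit at 0.20 and -0.03, the choroid plexus list at 0.49 and -0.24, and all 15521 probe sets close to 0.

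The recovery comparison asked what remained after 6 days of zinc. In ZR against ZRPF no member passed the threshold (1 probe set did, 0.00644%; 808 had an unadjusted p under 0.05, 5.21%, with no member among them). Of the 8 members tested 3 were higher and 5 lower, with a median of -0.03, and all probe sets had a median of -0.01. The balance turned with 1 rat left out, to 6 of 8 higher without ZRPF 6 or without ZR 7 and 5 of 8 without ZRPF 5, and it was 5 of 8 with the covariates. None of the 8 was without overlap between ZR and ZRPF, against 2.98% of probe sets. For the interaction, which tests whether the diet effects of the experiments differ, no member and no probe set passed (0%; 1025 had an unadjusted p under 0.05, 6.6%), and 7 of 8 members were below 0, as were 53.1% of probe sets, with a median of -0.16. *Csf1r* gave -0.35 ± 0.17 and *Aif1* -0.28 ± 0.18 (limma adjusted p = 0.751 and 0.785). A difference between the diet effects was not shown for any member.

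The control groups of the experiments were also compared, rats after 16 days against rats after 10. Here *Csf1r* rose, as 1 of the 8 members tested, where 15.7% of probe sets passed the threshold (9.5% upward). Its signal of 539 to 741 in PF and 823 to 1049 in ZRPF did not overlap. The difference was 0.56 ± 0.12 (95% interval 0.30 to 0.82, a fold of 1.48, limma adjusted p = 0.0046), and the adjusted p stayed between 0.00156 and 0.0337 over 20 alternatives. *Aif1* also did not overlap, at 394 to 503 and 519 to 620 (0.27 ± 0.13, limma adjusted p = 0.156), which makes 2 of 8 members without overlap and higher, against 12% of probe sets. The share of members called is thus near the background. The *P2ry12* probe sets disagreed, at -0.11 ± 0.14 and 0.46 ± 0.17 (limma adjusted p = 0.636 and 0.0706). The remaining tested members lay between 0.12 and 0.19. The comparison shares its PF arrays with ZD against PF: *Csf1r* gave 0.26 in ZD and 0.56 in ZRPF, *Aif1* 0.30 and 0.27, and *Lyz2* 0.45 and 0.12.

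By mean log2 signal, *Csf1r* was ordered PF (9.28 ± 0.21, SD, n = 4), ZD (9.54 ± 0.19), ZR (9.76 ± 0.21) and ZRPF (9.85 ± 0.16), with neighbours overlapping. *Lyz2* was ordered PF (10.21 ± 0.07), ZR (10.32 ± 0.16), ZRPF (10.33 ± 0.13) and ZD (10.67 ± 0.18), of which the first 3 overlapped, and ZD 9 lay below ZRPF 6 and ZR 10. Age, days on study, the fixed ration and the handling of the experiments cannot be told apart in ZRPF against PF. RNA measures differed with it: the log2 ratio of 3 prime to 5 prime actin signal was 1.37 to 1.73 in the 10-day arrays and 2.05 to 2.48 in the 16-day arrays. Their part in the *Csf1r* difference was not tested.

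Partner genes that rose in ZRPF against PF included *Cx3cl1*, at 0.48 ± 0.07 (limma adjusted p = 0.000292), the 1 gene called of the 15 tested for CSF1 and fractalkine signalling. That count stands beside the 15.7% of all probe sets that passed in this comparison, and 1 of 15 is below that share. *Cx3cl1* read 1740 to 2032 in PF, 1694 to 2099 in ZD, 2460 to 2831 in ZRPF and 2606 to 2904 in ZR, so the 16-day arrays all lay above the 10-day arrays. *Cx3cr1*, its receptor gene, lay -0.38 ± 0.20 from PF in ZRPF without a call. Of the 12 genes tested from the complement list 4 rose (*C1ql1*, *Clu*, *Calr* and *Susd4*), where 9.5% of all probe sets rose. *C1ql1* is the C1q-like protein of neurons named above, so the count is one of the list and not of complement components. Of the 11 further microglia genes 1 rose, *Mertk*, a receptor for the uptake of dying cells, at 0.42 ± 0.10 (limma adjusted p = 0.00918). Among the 14 reactive genes *Apoe* and *Ctsb* rose and *Spp1* and *Cd9* fell, *Spp1*, which encodes osteopontin, by 1.37 ± 0.32 (limma adjusted p = 0.00713).

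The members also varied from rat to rat within groups. As deviations from each gene's mean over 16 arrays, the members averaged -0.29 in PF 2, where 9 of 10 lay below their mean, and 0.21 in ZD 2, where 10 of 10 lay above it. ZD 9 averaged 0.16, and ZD 3 and ZD 8 both averaged -0.13. So the ZD group held 2 rats with most members high and 2 with most members low, and *Lyz2* did not follow this split: it was lowest in ZD 9 and high in ZD 3 and ZD 8. ZRPF 6 averaged 0.21 and ZR 15 0.16. ZR 10 averaged -0.30, which includes its very low *Itgam* value. Of its members 7 of 10 lay above their mean, with a median deviation of 0.05.

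**Figure D4:**
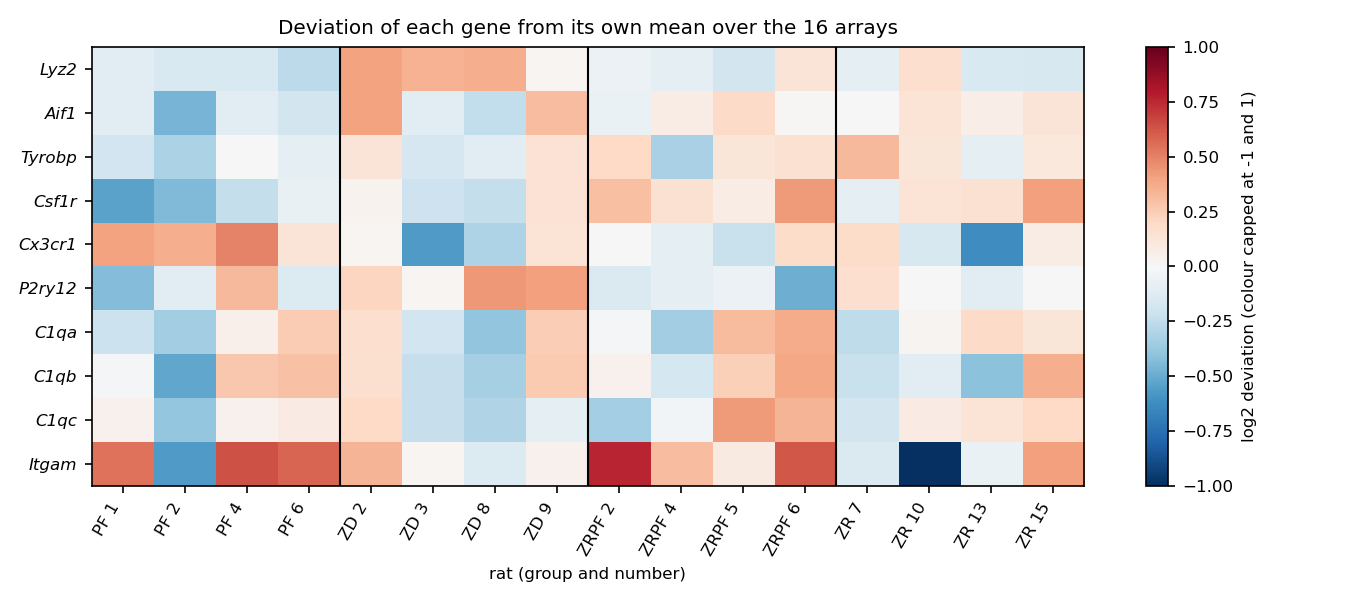
Deviation of each member gene (rows) from its own mean log2 signal over the 16 arrays (columns, 1 rat each, with lines between PF, ZD, ZRPF and ZR); red is above the mean and blue below, with the colour ending at -1 and 1. PF 2 is below the mean in 9 of 10 genes, ZD 2 is above the mean in all 10, and Lyz2 (top row) is red in ZD 3 and ZD 8 where the C1q rows are blue.

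Within groups, 37 of 45 pairs of member genes had a positive correlation of their deviations in the 10-day arrays (median r = 0.50) and 28 of 45 in the 16-day arrays (median r = 0.10). *C1qa* and *C1qb* correlated at r = 0.92 in the 10-day arrays (8 rats, Spearman rho = 0.90, exact permutation p = 0.00868 and 0.0122, Benjamini-Hochberg adjusted 0.188 and 0.379 over 90 pairs) and at 0.56 in the 16-day arrays (rho = 0.52, exact permutation p = 0.153 and 0.188, adjusted 0.509 and 0.603). Without the 2 rats farthest from the median of *C1qa*, r was 0.92 in the 10-day arrays and 0.26 in the 16-day arrays. Whether the fall from 0.56 to 0.26 is more than leaving out extreme rats would give was not tested. None of the 90 pairs passed the adjustment in this design, whose smallest exact p is 0.00174. Genes of 1 array share its RNA and labelling, and the pairs are not independent.

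The genes most like the members were sought among 9270 other tested genes, by Pearson r with the mean of the 8 tested members over 16 arrays after group means were removed. They were *Gpt* (r = 0.88), *Plxnb1* (0.88), *Pdlim4* (0.87), *Ubr4* (0.86), *Dhx37* (0.85) and *Pex26* (0.83), where the median r of all ranked genes was 0.09. The values are a description, since these genes were picked for them.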

How the data were processed

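Each deposited value was a linear intensity, the MAS5 signal of 1 probe set on 1 array, made by the authors with MAS5 per the submitters' processing notes; its version is not given in the sources used here. RNA from single diencephalons was labelled with a kit primed at the 3 prime end, per the labels. Of 31099 probe sets, 57 controls were set aside. Signals were taken as log2 of the deposited values, with no further normalization. The platform annotation gave 1 gene to 20826 probe sets, more than 1 to 436 and no gene to 9780. Those at or above the median mean log2 signal (7.35) were tested.

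The 4 groups of 4 arrays were fitted with limma 3.58.1 in R 4.3.3 (intensity trend, Benjamini-Hochberg over 15521 probe sets, threshold 0.05, two-sided). The number of arrays limits the precision. Each gene was represented by its brightest probe set. Named were all members, up to 3 genes of smallest p per list in ZD against PF and in ZR against ZRPF, fixed partners, and the 6 most alike genes; others, given as ranges beside the members or as called list genes, were chosen after their values were seen. The members and lists were chosen with earlier results of these data known. PF and ZRPF rats of equal number correlated at 0.079, 0.020 and 0.035 and were not taken as pairs. Alternatives were another normalization, filter, offset, trend or weights, fewer arrays, and covariates.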

Additional observations from a re-analysis of the deposited data

Results flagged for a closer look

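In 7 of the 48 groups of 4 arrays examined (12 probe sets in 4 groups), 1 rat stood apart from the other 3 by more than the critical gap, which chance gives in about 5% of groups. *Lyz2* was low in ZD 9, at a log2 signal of 10.40 where the other ZD rats were at 10.73 to 10.79, still above all PF rats. The second *P2ry12* probe set was low in ZR 13, at 8.15 against 8.54 to 8.62. *C1qc* was low in PF 2, at 8.07 against 8.50 to 8.55, and *Tyrobp* was low in ZRPF 4, at 7.35 against 7.80 to 7.88.

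The other values that stood apart belong to probe sets below the filter. The weaker *Aif1* probe set was at 5.16 in ZR 13 against 6.42 to 6.60, and *Itgam* at 5.56 in PF 2 against 6.67 to 6.76 and at 2.69 in ZR 10 against 5.98 to 6.53.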

How the results depend on the processing

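The member medians moved by less than the SD between arrays (0.14), which is wide beside them. With 1 array left out they ran from 0.15 to 0.26 in ZD against PF, -0.062 to 0.040 in ZR against ZRPF, -0.27 to -0.077 in the interaction and 0.065 to 0.24 in ZRPF against PF, and the last was 0.030 with choroid plexus and thalamus covariates. *Lyz2*, *P2ry12*, *Aif1*, *Csf1r* and *Tyrobp* kept their direction in ZD against PF in each of their alternatives, and no member gained or lost a call in any comparison. The number of probe sets called was less steady. In ZD against PF it was 0 to 3 with 1 array left out (3 without ZD 8) and 1 without ZD 8 and 9 together. In ZR against ZRPF it was 0 under quantile normalization, no filter, only the brightest probe sets, no intensity trend or only the 8 arrays compared, and 0 to 9 with 1 array left out (9 without ZRPF 6). For the interaction it was 0 to 1 (1 without ZD 9 or ZRPF 4). In ZRPF against PF it was 2430, and 1342 with choroid plexus and thalamus covariates, 1085 with the replicate block over the 3 equal-numbered pairs and 1305 on the same 6 arrays with no replicate block, an alternative chosen after seeing the data; fewer arrays account for most of that gap, and *Csf1r* was called in the replicate block too. Signs of small differences turned. With the covariates, ZD against PF gave -0.12 for *C1qa*, ZR against ZRPF gave 0.0050 for *Lyz2* and 0.0047 for *C1qc*, the interaction gave 0.080 for *C1qa* and 0.091 for *C1qb*, and ZRPF against PF gave -0.10 for *C1qb* and -0.069 for *C1qc*. Without ZD 8 and 9, *C1qc* gave 0.039 in ZD against PF and -0.080 in the interaction, and *P2ry12* gave 0.0095 in the interaction. Array weights gave -0.029 for *C1qc* in the interaction, and the mean of its probe sets gave 0.18 for *P2ry12* in ZRPF against PF. With 1 array left out, ZD against PF ran from -0.076 to 0.14 for *C1qa*, -0.22 to 0.059 for *C1qb* and -0.17 to 0.011 for *C1qc*. ZR against ZRPF ran from -0.087 to 0.052 for *Lyz2*, -0.012 to 0.073 for *Aif1*, -0.21 to 0.032 for *C1qa*, -0.19 to 0.067 for *C1qc* and -0.041 to 0.15 for *Tyrobp*. The interaction ran from -0.23 to 0.011 for *C1qa*, -0.33 to 0.00080 for *C1qb* and -0.13 to 0.12 for *C1qc*, and ZRPF against PF from -0.22 to 0.028 for *P2ry12* and -0.059 to 0.21 for *C1qb*. The cause of these turns was not tested. The low signal of *Cx3cr1* and *Itgam* allows no call.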

Other observations

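A few of the 21 microglia genes below the filter are named here after their values were seen, with no call; they went both ways. *Olfml3*, a secreted protein of microglia, read 136 to 177 in ZD and 81.8 to 110 in PF, without overlap, and 107 to 156 in ZRPF and 86.3 to 112 in ZR. The share of probe sets below the filter that separate in this way was not counted. *Irf8*, a transcription factor of myeloid cells, read 61.6 to 73.0 in PF, 61.7 to 133 in ZD, 69.8 to 137 in ZRPF and 83.2 to 161 in ZR. *Cd68*, a lysosomal protein of macrophages, read 55 to 83.9 in PF and 68.9 to 89.7 in ZD, which overlapped, and *Hpgds*, a prostaglandin synthase of microglia, read 43.5 to 69.9 in PF and 33.4 to 57.7 in ZD, which overlapped too.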
